A study of Mus musculus with 6 samples.

Results

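The genes described are the enzymes that make and use glutathione and the other main antioxidant enzymes of the cell. They were picked by a rule on gene symbols, chosen with earlier results of these data known. They are the glutathione synthesis and recycling genes, glutathione S-transferases (GST), glutathione peroxidases, peroxiredoxins, thioredoxins with their reductases and sulfiredoxin, superoxide dismutases, catalase, heme oxygenases, Nqo1, metallothioneins, and the pair Nfe2l2 and Keap1. The rule found 53 genes of the 20645 listed, and 51 of them had enough reads to be tested. Expression was measured by RNA sequencing in lung mesenchymal stromal cells (MSC) of C57BL/6 mice with the genotype Tbx4-rtTA/TetO-Cre/mT-mG. Both groups came from mice given doxycycline from embryonic day 6.5 to postnatal day 1. The mT group (3 libraries) was sorted for membrane TdTomato, the colour of cells whose reporter Cre did not recombine, and the mG group (3 libraries) for membrane GFP, the colour after recombination. Cre depends on the Tbx4 driver, so mG marks cells in which that driver was active under doxycycline, and their descendants. The cells were released with dispase II, collagenase and DNAse into a serum-containing medium that held 55 µM beta-mercaptoethanol, a thiol reductant, and this was the same for both groups. Nothing in the labels ties the replicates to separate animals, and each p-value below reflects only the variation among these 6 libraries, part of which may be technical.

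Glutathione is a tripeptide thiol made by glutamate-cysteine ligase (catalytic subunit Gclc, modifier subunit Gclm) and glutathione synthetase (Gss), and kept reduced by glutathione reductase (Gsr). GST join it to reactive compounds, peroxidases use it or thioredoxin to remove peroxides, and superoxide dismutases feed hydrogen peroxide to them and to catalase. Many of these genes are known targets of the transcription factor NRF2 (Nfe2l2), which KEAP1 holds low until oxidants or electrophiles modify it, and which binds antioxidant response elements in promoters.

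Promoters are shown for those of the 8 genes with the smallest p between the groups that had a listed window, and for Srxn1, Gstp1 and the metallothioneins beside them. They are RefSeq windows on GRCm38.p6, 250 bases before to 50 bases after the start, printed 5′ to 3′ along the gene's own strand. Such a window was listed for 46 of the 53 genes, and for Gclc, Gsr, Gsta4, Gstt2, Hmox1, Prdx6 and Sod3 none was matched. Capitals in the first set mark matches to the core of the antioxidant response element, spelled TGACNNNGC or TGAGNNNGC and sought on both strands. The set holds Gstm2 (chr3:107986371-107986670, minus strand), which had the smallest p of all these genes, Mgst3 (chr1:167393792-167394091, minus strand), Gstm4 (chr3:108044810-108045109, minus strand, 1 of 2 listed starts), Gstm7 (chr3:107931565-107931864, minus strand, 1 of 2 listed starts), and Gclm (chr3:122245307-122245606, plus strand). Srxn1 (chr2:152105274-152105573, plus strand) is added as a gene with several matches.
Gstm2: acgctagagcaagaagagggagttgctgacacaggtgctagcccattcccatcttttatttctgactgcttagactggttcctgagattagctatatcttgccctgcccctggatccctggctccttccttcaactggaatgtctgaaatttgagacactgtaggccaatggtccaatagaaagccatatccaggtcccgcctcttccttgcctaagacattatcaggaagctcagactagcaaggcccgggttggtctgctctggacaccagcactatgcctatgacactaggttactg
Mgst3: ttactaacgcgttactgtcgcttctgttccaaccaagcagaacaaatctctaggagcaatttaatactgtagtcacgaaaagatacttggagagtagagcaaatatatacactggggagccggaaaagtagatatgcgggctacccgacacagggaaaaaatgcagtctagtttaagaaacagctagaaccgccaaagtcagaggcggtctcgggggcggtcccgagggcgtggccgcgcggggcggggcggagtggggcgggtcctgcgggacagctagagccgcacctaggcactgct
Gstm4: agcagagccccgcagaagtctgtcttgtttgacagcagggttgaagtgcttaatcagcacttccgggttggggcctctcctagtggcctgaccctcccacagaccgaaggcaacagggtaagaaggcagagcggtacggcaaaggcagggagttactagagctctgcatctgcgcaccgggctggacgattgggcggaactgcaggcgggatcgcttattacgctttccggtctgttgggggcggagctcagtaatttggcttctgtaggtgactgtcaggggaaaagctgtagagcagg
Gstm7: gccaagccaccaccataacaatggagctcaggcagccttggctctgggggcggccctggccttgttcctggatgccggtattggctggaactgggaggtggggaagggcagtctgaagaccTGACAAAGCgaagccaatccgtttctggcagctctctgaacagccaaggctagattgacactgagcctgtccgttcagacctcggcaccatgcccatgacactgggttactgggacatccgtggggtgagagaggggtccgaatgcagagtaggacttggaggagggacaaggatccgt
Gclm: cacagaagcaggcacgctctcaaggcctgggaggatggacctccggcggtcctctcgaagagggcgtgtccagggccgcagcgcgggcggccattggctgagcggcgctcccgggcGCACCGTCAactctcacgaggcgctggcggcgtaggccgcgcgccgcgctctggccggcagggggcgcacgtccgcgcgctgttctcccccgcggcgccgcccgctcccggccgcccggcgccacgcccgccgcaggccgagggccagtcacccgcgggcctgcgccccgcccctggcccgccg
Srxn1: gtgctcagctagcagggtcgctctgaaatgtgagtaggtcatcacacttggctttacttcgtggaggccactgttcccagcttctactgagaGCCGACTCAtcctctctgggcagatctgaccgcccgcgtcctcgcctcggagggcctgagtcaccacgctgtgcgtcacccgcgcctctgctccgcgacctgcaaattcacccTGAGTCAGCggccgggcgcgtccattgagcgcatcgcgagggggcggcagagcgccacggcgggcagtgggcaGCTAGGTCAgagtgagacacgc
The windows of Gstm2, Mgst3 and Gstm4 held no match, those of Gstm7 and Gclm 1 each, 129 and 134 bases before the listed start, and that of Srxn1 3. At the other listed start of Gstm7 no match was found. With TGACNNNGC alone, 11 of the 46 genes had a match (23.9%), against 14% of the 27025 genes with such windows. With TGAGNNNGC counted as well, a spelling added after the first count had been seen, 18 had one (39.1%), against 30.8% of genes. The median log2 fold change of mG over mT was −0.06 for the 10 tested genes with TGACNNNGC and 0.10 for the 34 tested genes whose listed window lacked it. With both spellings it was −0.04 for 17 genes and 0.14 for 27. A match is a string of letters in this window and not a binding site.

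The pair Gstp1 (chr19:4037863-4038162, minus strand) and Gstp2 (chr19:4042172-4042471, minus strand) is shown because these near copies had different values between the groups. Capitals mark the 54 bases of each that were not identical in their alignment.
Gstp1: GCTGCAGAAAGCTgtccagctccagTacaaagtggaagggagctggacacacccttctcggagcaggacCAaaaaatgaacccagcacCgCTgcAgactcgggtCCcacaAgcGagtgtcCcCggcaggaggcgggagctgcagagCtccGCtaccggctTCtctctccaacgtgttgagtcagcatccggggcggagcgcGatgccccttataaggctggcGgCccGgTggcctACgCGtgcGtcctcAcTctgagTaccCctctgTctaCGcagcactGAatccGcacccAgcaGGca
Gstp2: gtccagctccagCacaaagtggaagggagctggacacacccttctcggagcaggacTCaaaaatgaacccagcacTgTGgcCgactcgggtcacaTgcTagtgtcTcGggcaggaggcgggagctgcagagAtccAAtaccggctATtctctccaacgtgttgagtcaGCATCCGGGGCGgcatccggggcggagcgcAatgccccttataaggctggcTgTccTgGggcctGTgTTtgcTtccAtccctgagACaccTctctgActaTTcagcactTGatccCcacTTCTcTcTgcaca
The 2 windows shared 77.1% of aligned positions, while pairs of mu-class promoters shared 45.3% to 52.3%. Pairs of a mu- with a pi-class promoter shared 46.8% to 54%. Only the first listed window of each gene was aligned, and listed starts may not correspond between genes. How alike the mu-class promoters are can therefore not be judged from these values. Both contain TGAGTCAGC, 74 bases before the start in Gstp1 and 89 in Gstp2. Gstp1 alone also has a TGAGNNNGC match on the other strand, TGAGGACGC, 9 bases before the start. The metallothioneins Mt1 (chr8:94178839-94179138, plus strand) and Mt2 (chr8:94172368-94172667, plus strand) bind zinc and copper, and capitals here mark the metal response element core, spelled TGCACNC or TGCGCNC on both strands.
Mt1: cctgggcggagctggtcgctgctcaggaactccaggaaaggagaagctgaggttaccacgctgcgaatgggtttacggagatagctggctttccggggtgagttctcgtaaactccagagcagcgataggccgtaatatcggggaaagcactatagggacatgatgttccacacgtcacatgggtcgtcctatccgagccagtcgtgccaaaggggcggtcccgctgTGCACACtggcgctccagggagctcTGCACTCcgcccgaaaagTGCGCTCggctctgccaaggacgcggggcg
Mt2: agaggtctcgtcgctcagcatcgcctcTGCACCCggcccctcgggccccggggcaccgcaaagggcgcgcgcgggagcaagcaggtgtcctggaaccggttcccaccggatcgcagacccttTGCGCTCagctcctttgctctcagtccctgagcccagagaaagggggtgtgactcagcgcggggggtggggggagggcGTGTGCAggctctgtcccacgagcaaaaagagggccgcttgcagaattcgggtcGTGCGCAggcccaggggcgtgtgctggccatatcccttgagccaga
Mt1 had 3 matches and Mt2 had 4. Of the 46 genes 15 had a match (32.6%), against 28.2% of all genes with a window.

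Library totals ran from 16853561 to 19429138 counts. Values below are CPM, counts scaled to a common library size, on TMM-scaled totals, and 3 counts in a library correspond to 0.141 to 0.18 CPM. Mesenchymal markers summed to 12451 to 27471 CPM in each library. Of 7 epithelial markers only 2, Scgb1a1 and Foxj1, were among the genes listed, and they summed to 0.101 to 0.53 CPM. Of 7 leukocyte markers the pan-leukocyte marker Ptprc had 0 to 6 counts. The 3 tested leukocyte markers were low, and their values differed between the groups: Csf1r averaged 1.62 CPM in mT and 7.72 CPM in mG, Lyz2 13.2 and 3.99 CPM, and Cd68 0.468 and 1.05 CPM, each without overlap. None of these passed in edgeR, and DESeq2 called Csf1r and Lyz2. The second mG library stood apart: cartilage markers summed to 3613 CPM there and to 9.43 to 76.1 CPM in the other libraries. Endothelial markers summed to 23.6 CPM in that library and to 52.7 to 263 CPM elsewhere, most of it Flt1 (22.3 to 257 CPM). In mT replicate 1 Flt1 made up 104 of 154 CPM. The endothelial markers Emcn, Pecam1 and Cdh5 were highest in mT replicate 1, at 33.5, 7.04 and 6.79 CPM, and at most 0.382 CPM in any mG library. The other listed endothelial markers peaked in mG: Flt1 and Kdr in mG replicate 1, at 257 and 6.32 CPM, and Tek in mG replicate 2, at 0.656 CPM. Their highest mT values were 172, 3.39 and 0.24 CPM. Mesothelial markers summed to 64.5 CPM in mG replicate 3 and to 5.01 to 18.9 CPM in the others. That library was the highest for 12 of the 51 tested genes (23.5%, against 16.3% of all tested genes), Gstm2, Gstm7, Prdx6 and Mgst1 among them. Replicate 2 of mG was also the highest for 12 (23.5%, against 24.8%). Proliferation markers summed to 115 to 302 CPM in mT and to 254 to 980 CPM in mG. The part of these marker differences in the results was not tested.

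None of the 51 tested genes passed the test between mG and mT (edgeR quasi-likelihood, Benjamini-Hochberg adjustment over 13566 genes at 0.05), in which 0.907% of all tested genes were called. What follows gives sizes and their errors. In these bulk samples, fewer cells of a type and less RNA per cell cannot be told apart. With no adjustment, 15 of the 51 had p under 0.05 (29.4%, against 14.6% of all tested genes). Of these, 8 were higher in mG, a direction held by 7.7% of all tested genes, and 7 were lower, held by 6.88%. The 3 mG values lay wholly above or wholly below the 3 mT values for 15 of the 51 tested genes (29.4%, against 20.8% of all tested genes), with 7 higher in mG (9.97% of all tested genes) and 8 lower (10.8%). The median log2 fold change was 0.09, beside 0.02 over all tested genes, and the median size without sign was 0.37, beside 0.24. The fitted difference was at least 2-fold for 9 genes (17.6%, against 14.1%). For 24 genes the 95% confidence interval lay wholly within 2-fold either way. DESeq2 called 7 of the 53 (13.2%, against 5.95% of its genes), namely 3 higher in mG (Gstm2, Gstm4 and Gstm7; background 2.95%) and 4 lower (Gsta4, Gstp2, Hmox1 and Mgst3; background 3%). limma-voom called 0, with 0.678% of all tested genes called, and edgeR with the replicate number as a block called 0, with 0.796% called. Leaving out mG replicate 1 gave 1 call (Gstm2; background 0.507%) and leaving out mG replicate 2 gave 2 (Gsta4 and Gsto1; background 2.61%). By the authors' deposited table, an adjusted p under 0.05 was listed for 5 of the 53 genes (9.43%, against 6.05% of its rows). Of these, 3 were higher in mG (Gstm2, Gstm7 and Mgst2, with a background of 3.19%) and 2 lower (Gsta4 and Gstp2, with a background of 2.86%). Most Mgst2 counts came from mG replicate 2. The labels of the authors' comparison read RUV, UQ and LR, so its scaling and test may differ from those used here. The counts thus depend on the method, and edgeR's adjusted p is the one given below unless another is named.

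**Figure D1:**
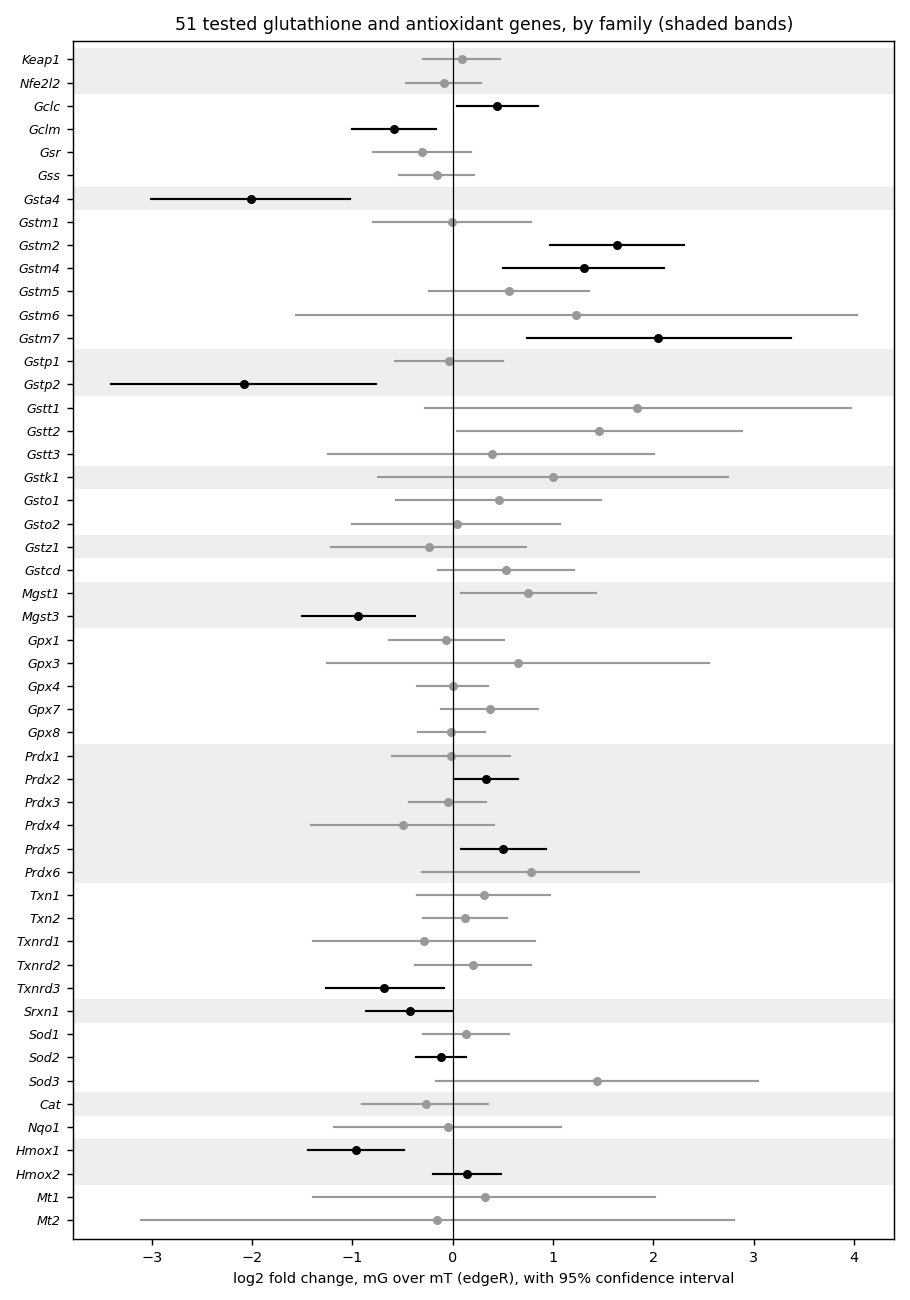
Log2 fold change of mG over mT from edgeR with its 95% confidence interval (x axis) for the 51 tested genes (y axis), in shaded bands by family. Black marks genes whose 3 mT and 3 mG values did not overlap, grey the others, and intervals run from narrow (Sod2, −0.37 to 0.13) to wide (Mt2, −3.11 to 2.80).

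Neither gene of the NRF2 switch passed the test, and their intervals lay within 2-fold. Nfe2l2 had 88, 63.5 and 81.5 CPM in mT replicates 1 to 3 and 77.1, 66.7 and 74.5 CPM in mG. Keap1, the adaptor that sends NRF2 for degradation, had 38.3, 38.3 and 39 CPM in mT and 34.5, 49.6 and 38.7 CPM in mG. The groups overlapped for both, with log2 fold changes of −0.09 ± 0.16 (SE; 95% interval −0.47 to 0.28; adjusted p = 0.867) and 0.09 ± 0.16 (−0.30 to 0.47; adjusted p = 0.882). These are transcript levels, and NRF2 is known to be controlled mainly through the stability of its protein. A 10.9% stretch of Keap1's exon bases overlaps an antisense gene, whose reads these unstranded libraries cannot separate.

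Glutathione synthesis genes had fitted differences of opposite sign in the 2 subunits of one enzyme. The catalytic subunit Gclc had 86.3, 63.8 and 73.7 CPM in mT and 90.6, 118 and 95.7 CPM in mG. The modifier subunit Gclm, which raises the activity of the catalytic subunit, had 112, 98.3 and 105 CPM in mT and 76.9, 54.5 and 78.4 CPM in mG. Every mG library was above every mT library for Gclc and below every one for Gclm. The log2 fold changes were 0.44 ± 0.17 (0.04 to 0.85; adjusted p = 0.308) and −0.59 ± 0.17 (−1.0 to −0.17; adjusted p = 0.200), so neither passed the test. A ratio chosen after these values were seen, Gclc counts per Gclm count, was 0.772, 0.649 and 0.703 in mT and 1.18, 2.16 and 1.22 in mG. Gss had 24.8, 25.1 and 28.8 CPM in mT and 20.3, 23.6 and 26.3 CPM in mG (adjusted p = 0.728). Gsr had 33.8, 37 and 32 CPM in mT and 36.1, 23.7 and 23.4 CPM in mG (adjusted p = 0.572), and for Gss and Gsr the groups overlapped.

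Among the GST, the mu class had the highest mean summed level in both groups, though omega was slightly higher in mG replicate 1 (261 against 252 CPM), and it held the gene with the smallest p. Gstm2, which conjugates electrophiles to glutathione, had 72.8, 93.2 and 69.9 CPM in mT and 155, 278 and 300 CPM in mG. The lowest mG library was above the highest mT library. The fitted level was 3.11-fold higher in mG (log2 fold change 1.64 ± 0.28, 95% interval 0.97 to 2.31), with an adjusted p of 0.0673. The adjusted p was 1.85e-05 in DESeq2, 0.0727 in limma-voom and 0.00377 in the authors' deposited table, and without mG replicate 1 it was 0.0315 in edgeR. With each library left out in turn it ran from 0.0315 to 0.289. Gstm1, its neighbour, did not share this pattern: it had 93.2, 101 and 68.3 CPM in mT and 61.8, 66.8 and 133 CPM in mG, with overlapping groups (log2 fold change −0.01 ± 0.33, −0.79 to 0.78; adjusted p = 0.996).

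Gstm4 had 7.75, 5.87 and 6.41 CPM in mT and 9.6, 22 and 17.9 CPM in mG. Gstm7 was lower throughout, at 1.57, 1.26 and 1.44 CPM in mT and 2.45, 5.15 and 10.2 CPM in mG. Neither had overlapping groups, and the log2 fold changes were 1.31 ± 0.34 (adjusted p = 0.156; DESeq2 0.0113) and 2.05 ± 0.55 (adjusted p = 0.170; DESeq2 0.00837). Without mG replicate 3 the value for Gstm7 was 1.41. Gstm5 (28.1 to 28.5 CPM in mT; 21.3 to 54.2 CPM in mG) and Gstm6 (0 to 1.62 CPM and 0.609 to 2.71 CPM) had overlapping groups. Summed over the 6 mu genes, the level was 205, 230 and 175 CPM in mT and 252, 427 and 514 CPM in mG. Within that sum, a share chosen after the values were seen, Gstm2 took 35.5%, 40.6% and 40% of mu counts in mT and 61.6%, 65.2% and 58.5% in mG. Gstm1 took 45.5%, 44% and 39.1% in mT and 24.6%, 15.6% and 25.8% in mG. In RefSeq the Gstm genes lie side by side on chromosome 3 in the order Gstm5, Gstm7, Gstm6, Gstm3, Gstm2, Gstm1 and Gstm4, with predicted genes between them. Of their exon sequence, 18.9% in Gstm1, 5.65% in Gstm2 and 0.532% in Gstm7 occurs as 50-base stretches in other genes' transcripts, and 0% in Gstm4.

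**Figure D2:**
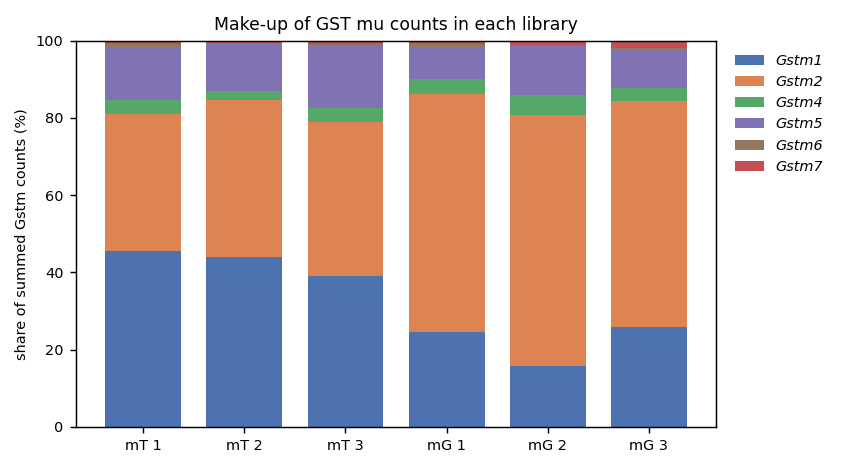
Share of summed counts of the 6 mu-class GST genes (y axis, percent) in each library (x axis), stacked by gene. Gstm2 takes 35.5% to 40.6% in the mT libraries and 58.5% to 65.2% in the mG libraries.

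The alpha- and pi-class genes with small p were lower in mG, and at low levels. Gsta4, which detoxifies the lipid peroxidation product 4-hydroxynonenal, had 9.47, 6.35 and 4.91 CPM in mT and 1.25, 2.44 and 1.41 CPM in mG. Gstp2 had 6.23, 5.03 and 4.49 CPM in mT and 1.42, 0.422 and 1.89 CPM in mG. Groups did not overlap for either. The fitted levels were 4.04-fold lower in mG for Gsta4 (log2 fold change −2.01 ± 0.41, −3.01 to −1.02; adjusted p = 0.102; DESeq2 0.000229) and 4.24-fold lower for Gstp2 (−2.08 ± 0.55; adjusted p = 0.166; DESeq2 0.00501). Gsta4 passed edgeR's threshold without mG replicate 2, at an adjusted p of 0.0476. Gstp1, the main pi-class gene, had 126, 125 and 116 CPM in mT and 112, 86.5 and 158 CPM in mG, overlapping (−0.04 ± 0.23; adjusted p = 0.967). Gstp2 is uncertain, since 54.3% of its exon sequence occurs in other genes' transcripts, mostly Gstp1's, and how shared reads were counted is not given in the sources used here. Gsta3 had 4, 4 and 2 counts in mT and 0, 19 and 5 in mG and was not tested.

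The other soluble GST had overlapping groups. Gstt1 had 2.89, 9.34 and 2.16 CPM in mT and 4.58, 36.4 and 10.6 CPM in mG (log2 fold change 1.84 ± 0.89; adjusted p = 0.408), and the log2 fold change was 0.65 without mG replicate 2 and 2.76 without mT replicate 2. Gstt2 had 0.76, 0.539 and 1.02 CPM in mT and 2.18, 3.37 and 0.825 CPM in mG (adjusted p = 0.330). Gstk1 and Gsto1, singled out after their values were seen, went opposite ways in mG replicate 2. Gstk1 was 19.3 CPM there against 2.34 and 9.66 CPM in the other mG libraries and 3.36 to 7.75 CPM in mT. Gsto1 was 76.3 CPM there against 260 and 236 CPM in the other mG libraries and 130 to 152 CPM in mT. Without that library Gsto1 passed the test (log2 fold change 0.83; adjusted p = 0.0448), and with it the adjusted p was 0.719. Gstt3, Gstz1, Gsto2 and Gstcd had overlapping groups, with log2 fold changes of −0.24 to 0.53.

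The membrane-bound GST had fitted differences in both directions. Mgst3 had 46.6, 69.9 and 48.5 CPM in mT and 25.1, 24.6 and 36.4 CPM in mG, with no overlap (log2 fold change −0.94 ± 0.23; adjusted p = 0.147; DESeq2 0.0272). Mgst1, which also reduces lipid peroxides, had 19.2, 16.1 and 12.9 CPM in mT and 17.9, 30.1 and 33.5 CPM in mG, and the groups overlapped through mG replicate 1 (0.75 ± 0.28; adjusted p = 0.294). Mgst2 had no count in any mT library and 1, 34 and 2 counts in mG, at least 11.6-fold higher against a floor of 3 counts over the mT group. Of its 37 counts in mG, 34 came from mG replicate 2, and it was not tested here. The authors' deposited table listed an adjusted p of 0.00129 for Mgst2.

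**Figure D3:**
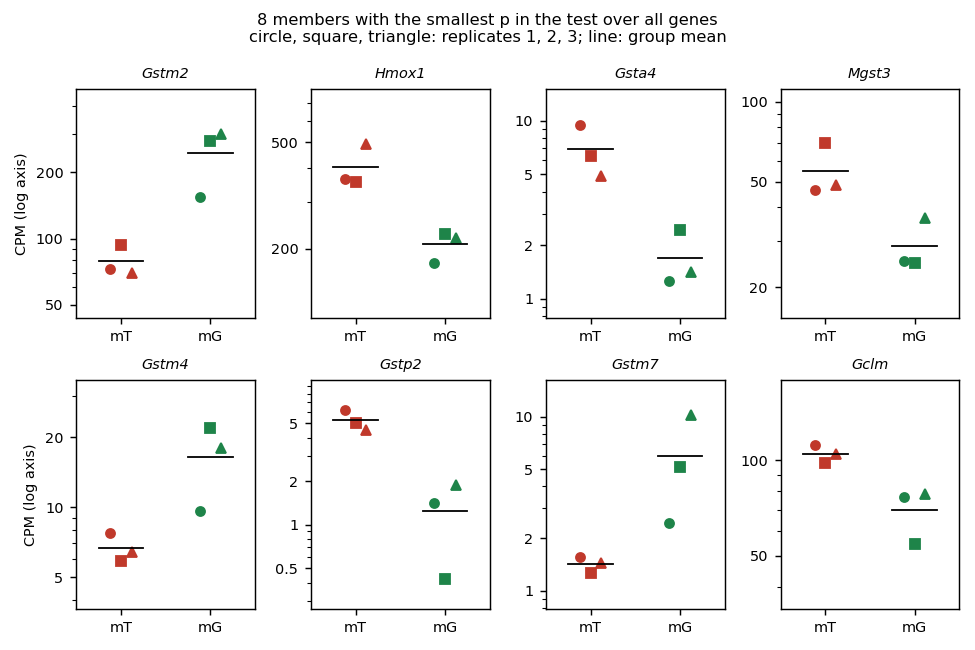
CPM (y axis, log scale) in mT and mG for the 8 genes with the smallest p among the 51, with circle, square and triangle for replicates 1, 2 and 3 and a line at the group mean. Gstm2, Gstm4 and Gstm7 sit higher in all 3 mG libraries, and Hmox1, Gsta4, Mgst3, Gstp2 and Gclm lower.

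Heme oxygenase 1 (Hmox1), which breaks down heme and is a well-known stress-inducible gene, had the second smallest p. It had 365, 355 and 494 CPM in mT and 177, 226 and 220 CPM in mG. All mG libraries were below all mT libraries, and the fitted level was 1.95-fold lower in mG (log2 fold change −0.96 ± 0.20, −1.44 to −0.49; adjusted p = 0.102). DESeq2 gave an adjusted p of 0.00128, and leaving out single libraries gave 0.0663 to 0.344 in edgeR. Hmox2, the constitutive form, had 22.4, 19.2 and 22.1 CPM in mT and 22.5, 23 and 24.7 CPM in mG (0.14 ± 0.14; adjusted p = 0.744). Of Hmox2's exon bases 40.2% overlap Cdip1 on the other strand, so its count is uncertain. Nqo1, a quinone reductase and standard NRF2 target, had 73.4, 42.2 and 39.7 CPM in mT and 25.3, 84.9 and 39.8 CPM in mG (−0.05 ± 0.47; adjusted p = 0.983), with the highest and the lowest value both in mG, and −0.69 without mG replicate 2.

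Of the glutathione peroxidases, Gpx1, Gpx3, Gpx4 and Gpx8 were among the highest genes of the set and Gpx7 was not, and for all 5 the groups overlapped. Gpx1, the main cytosolic form, had 569, 831 and 579 CPM in mT and 748, 513 and 630 CPM in mG (log2 fold change −0.07 ± 0.24; adjusted p = 0.952). Gpx4, which reduces lipid peroxides in membranes, had 266, 272 and 275 CPM in mT and 241, 262 and 308 CPM in mG. Gpx8, an endoplasmic reticulum form, had 173, 196 and 206 CPM in mT and 175, 190 and 204 CPM in mG. The intervals bound any difference: −0.36 to 0.35 for Gpx4 and −0.35 to 0.32 for Gpx8 on the log2 scale (adjusted p = 0.995 and 0.981). The sign of Gpx4 flipped with RLE scaling, at a size near 0. The secreted Gpx3 had 367, 241 and 818 CPM in mT and 298, 1632 and 307 CPM in mG, and its log2 fold change of 0.65 ± 0.79 (adjusted p = 0.799) was −0.66 without mG replicate 2 and 1.29 without mT replicate 3. Gpx7 was 21.5 to 32.1 CPM in mT and 28.9 to 37.8 CPM in mG. Of Gpx4's exon sequence 34.7% occurs in another gene's transcripts, mostly a pseudogene copy.

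Peroxiredoxins reduce hydrogen peroxide, most with thioredoxin as partner and Prdx6 with glutathione. Prdx5 had 200, 214 and 244 CPM in mT and 261, 307 and 365 CPM in mG, and Prdx2 had 179, 160 and 167 CPM in mT and 207, 196 and 232 CPM in mG. Groups did not overlap for these genes (log2 fold changes 0.50 ± 0.18 and 0.33 ± 0.13; adjusted p = 0.275 and 0.334). Prdx1 had 483, 348 and 359 CPM in mT and 472, 284 and 417 CPM in mG (−0.02 ± 0.25; adjusted p = 0.986). Prdx6, which also has phospholipase activity, had 308, 180 and 298 CPM in mT and 470, 200 and 677 CPM in mG (0.78 ± 0.45; adjusted p = 0.502). Its log2 fold change was 1.12 without mG replicate 2 and 0.36 without mG replicate 3. Prdx3 and Prdx4 had overlapping groups. Of Prdx5's exon bases 19.1% overlap Trmt112 on the other strand.

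In the thioredoxin branch, the electron carrier Txn1 had 216, 188 and 225 CPM in mT and 349, 164 and 265 CPM in mG (log2 fold change 0.31 ± 0.28; adjusted p = 0.711). Its cytosolic reductase Txnrd1 had 307, 169 and 382 CPM in mT and 387, 139 and 178 CPM in mG (−0.29 ± 0.46; adjusted p = 0.863). Both were lowest in mG replicate 2. Sulfiredoxin (Srxn1), which restores overoxidized peroxiredoxins, had 85, 71.4 and 76.2 CPM in mT and 68.8, 45.4 and 57.9 CPM in mG, with no overlap (−0.43 ± 0.18; adjusted p = 0.334). Txnrd3 had 11.4, 17.1 and 15.2 CPM in mT and 7.25, 10.4 and 9.61 CPM in mG, also without overlap (−0.68 ± 0.24; adjusted p = 0.283).

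Of the superoxide dismutases, the mitochondrial Sod2 had the tightest values of the set: 57.4, 55 and 55 CPM in mT and 52.6, 50.4 and 51 CPM in mG. The groups did not overlap, yet the log2 fold change was −0.12 ± 0.10 (−0.37 to 0.13; adjusted p = 0.688). Cytosolic Sod1 had 151, 150 and 137 CPM in mT and 187, 124 and 166 CPM in mG (0.13 ± 0.18; adjusted p = 0.838). The extracellular Sod3 had 86, 39.7 and 93.7 CPM in mT and 59.2, 376 and 159 CPM in mG (1.44 ± 0.67; adjusted p = 0.390), highest in mG replicate 2, and 0.56 without that library. Catalase (Cat), the peroxisomal enzyme that splits hydrogen peroxide, had 113, 95.5 and 118 CPM in mT and 57.6, 115 and 96.9 CPM in mG (−0.27 ± 0.26; adjusted p = 0.726).

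The metallothionein Mt1 varied widely within each group: 160, 104 and 465 CPM in mT and 107, 302 and 499 CPM in mG (log2 fold change 0.32 ± 0.71; adjusted p = 0.911; 1.2 without mT replicate 3). The third library was the highest in both groups. Mt2 had 10, 1 and 41 counts in mT and 3, 13 and 33 in mG (−0.16 ± 1.23; adjusted p = 0.980), and its log2 fold change ran from −1.35 without mG replicate 3 to 1.62 without mT replicate 3. Since 73.5% of Mt2's exon bases overlap an antisense gene, its low count cannot be read as low expression.

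**Figure D4:**
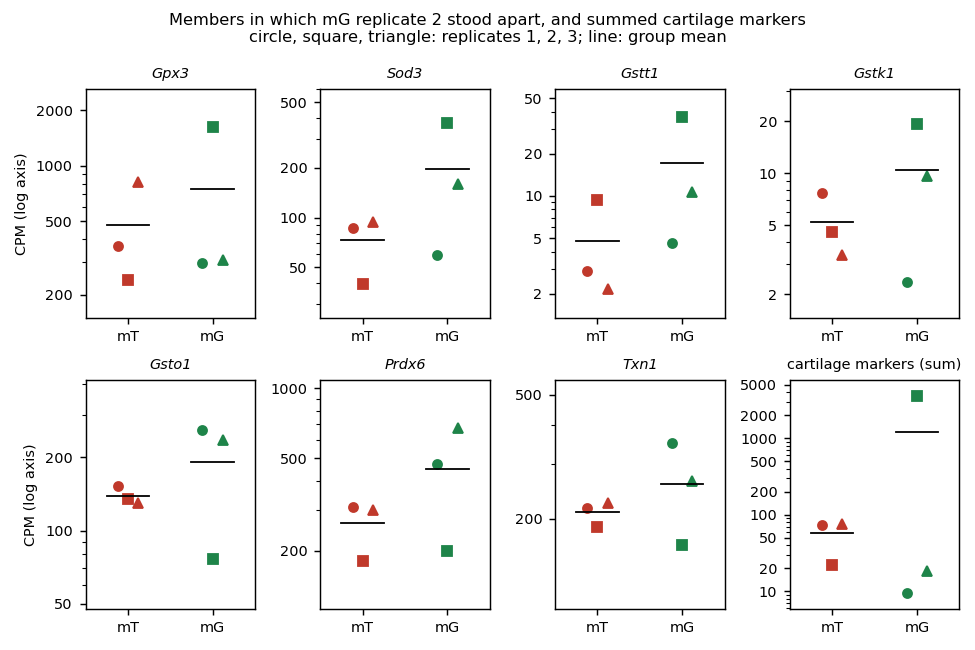
CPM (y axis, log scale) in mT and mG for 7 genes in which mG replicate 2 (green square) lay apart from the other mG libraries, with the summed cartilage markers in the last panel. The symbols stand for replicates 1, 2 and 3 and the line for the group mean, and the genes were chosen for this plot after their values were seen.

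Levels between genes were compared per kilobase of merged exons, as CPM per kilobase averaged over the 3 libraries of a group, and ordered by the mean of both groups. Gpx1 was highest, at 458 in mT and 437 in mG, followed by Gpx3 (262 and 411) and Txn1 (199 and 247). The mG value of Gpx3 rests on mG replicate 2 (1632 CPM, against 298 and 307 in the others). In mT alone Hmox1 stood above Txn1: Hmox1 was at 231 in mT and 119 in mG, Mt1 at 195 and 243, Gpx8 at 183 and 181 and Gpx4 at 157 and 157. Gstm2 was the highest GST in mG, at 146, and stood at 46.8 in mT. The order by the authors' RPKM differed, with Txn1 first and Gpx1 at rank 3. The listed gene lengths equalled the summed exons of all transcripts in GENCODE M21 plus 1 base per exon for all 53 genes and for 97% of the 20568 matched genes, so RPKM is lower for genes with many annotated transcripts.

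**Figure D5:**
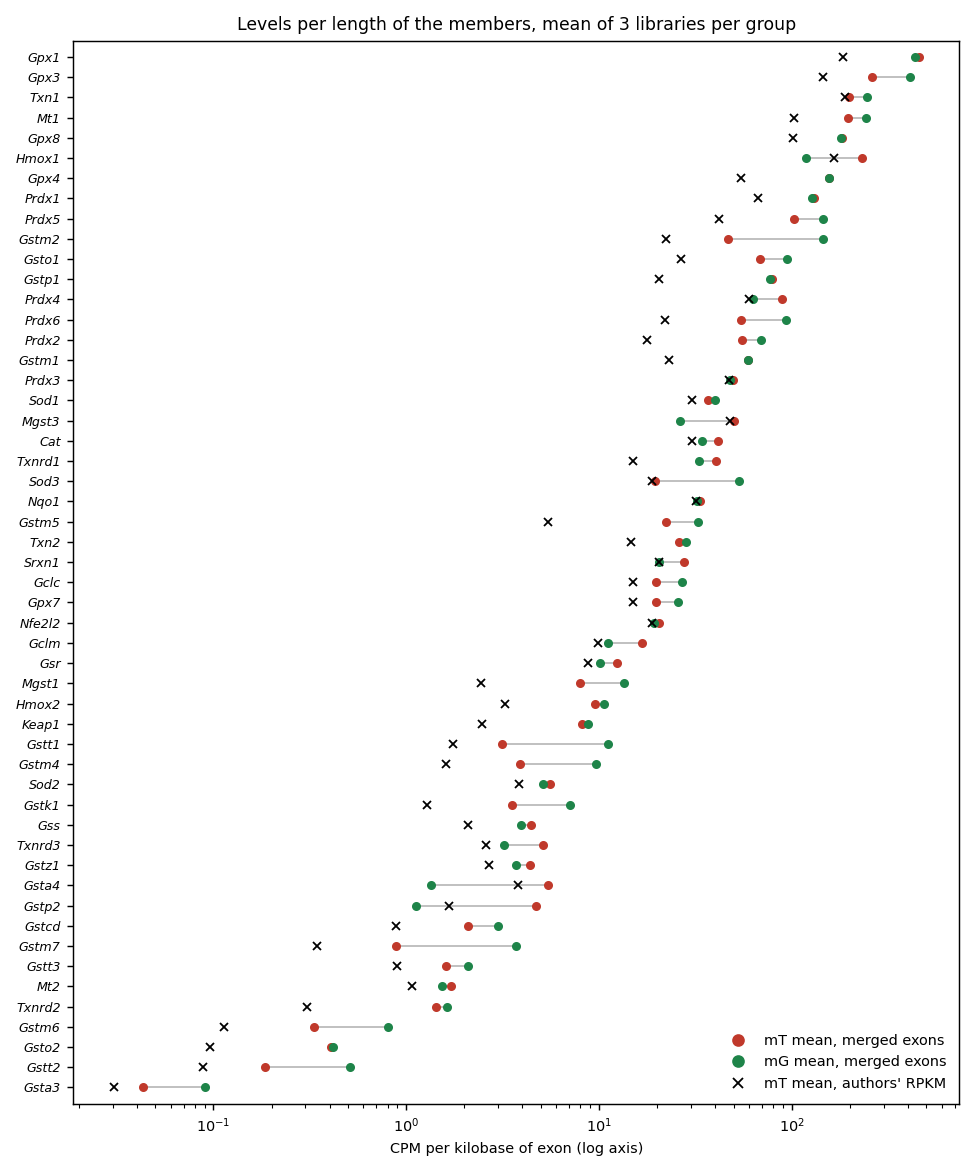
Mean CPM per kilobase of merged exon (x axis, log scale) in mT (red) and mG (green), with the authors' RPKM in mT as crosses, for each gene (y axis) in order of level. Gpx1 is highest at 458 in mT, and the crosses lie further left for genes with many annotated transcripts.

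Other redox genes were read from lists that do not include the genes above, and in every one edgeR called 0 genes, with 0.907% called over all tested genes. The shares over all genes to read the counts below against are 14.6% for an unadjusted p under 0.05 in edgeR and 5.95% for a DESeq2 call. Of 13 tested NRF2 regulators and partners 2 had an unadjusted p under 0.05, and of 21 other NRF2 targets 3, with median log2 fold changes of −0.09 and −0.18. DESeq2 called 0 in both lists. Of 12 genes of cysteine supply and transsulfuration 4 had p under 0.05 (median −0.18; DESeq2 called 3). Among them was Slc3a2, the heavy chain of the cystine importer, at 208 ± 23 CPM in mT and 121 ± 18 in mG (SD, n = 3; edgeR adjusted p = 0.110). The importer's light chain Slc7a11 was at 6.15 ± 3.49 and 5.35 ± 3.88 CPM, with overlapping groups (edgeR adjusted p = 0.954). Cbs, which starts transsulfuration from homocysteine, was higher in mG at a low level, 0.167 ± 0.095 and 2.09 ± 1.6 CPM (edgeR adjusted p = 0.125; DESeq2 0.00225). Chac1, also called by DESeq2, was lower in mG, at 33.2 ± 7.82 and 8.89 ± 7.9 CPM (edgeR adjusted p = 0.246, DESeq2 0.03). Of 17 glutathione turnover genes 4 had p under 0.05 (median −0.10; DESeq2 called 2), with Ggt7, of the gamma-glutamyltransferase family, at 8.58 ± 0.597 and 23.7 ± 7.26 CPM (edgeR adjusted p = 0.0713). Of 10 oxidases that make superoxide or hydrogen peroxide 4 had p under 0.05 (median 0.50; DESeq2 called 3). Xanthine dehydrogenase (Xdh) was 12.2 ± 0.963 CPM in mT and 81.1 ± 61.8 in mG (edgeR adjusted p = 0.084), and monoamine oxidase B (Maob) 2.36 ± 1.92 and 18.5 ± 3.23 CPM (edgeR adjusted p = 0.0891). Of 23 thiol repair genes and 11 zinc and iron handling genes 0 had p under 0.05 and DESeq2 called 0, with medians of −0.01 and 0.17.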

How the data were processed

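Libraries were unstranded, per the labels' protocols. Tools listed in the submitters' processing notes are STAR, edgeR 4.0, Trimmomatic 0.38, cutadapt 5.0 and FastQC 0.11.9. For the counting tool and genome build the entry is not given in the sources used here. The authors deposited 1 table of whole-number counts for 20645 genes, and every per-sample column was assigned to a sample from its name. Per the file headers it also holds RPKM, TMM-named signal columns, gene length, and the authors' comparison as log2 values, a score, −log10 values and a p-value, raw and adjusted. RPKM was used for the order of levels and the authors' comparison where the text names it.

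Differences were tested by the quasi-likelihood method of edgeR 4.0.16 under R 4.3.3 (TMM factors 0.9258 to 1.134, filterByExpr with a minimum count of 10). Between 0.013% and 0.0352% of a library's counts fall in unnamed rows. Intervals and floors cover counting error or the fitted spread only. Within-group correlations of libraries were 0.903 to 0.976, and no libraries were identical. In simulated data on 13566 genes, the test recovered 65 of 100 genes changed by 2 on the log2 scale and 71 of 100 changed by 3, with 3 false calls. The simulated libraries were independent, with no library set apart and no pairing. Recovery of smaller changes was not simulated, and the median size among the antioxidant genes was 0.37.

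The genes, the gene lists and the marker lists were chosen with earlier results of these data known. Genes named are the 12 with the smallest adjusted p, a panel of standard members, up to 3 per other list and any that passed. Ratios, shares and genes said to be chosen after their values were seen fall outside this rule. Deviations from group means of same-numbered mT and mG libraries correlated at 0.241, 0.183 and 0.299. Each was above 0.1, so the numbers may pair the libraries. The main test, with the errors, intervals and adjusted p-values printed from it, did not use this pairing. Only the replicate block did. The pairing rests on these correlations, as no label explains the numbers. Alternatives were RLE and upper-quartile scaling, other filters, DESeq2 1.42.0, limma-voom (limma 3.58.1), the replicate block and each library left out.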

Additional observations from a re-analysis of the deposited data

How the results depend on the processing

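Over all genes 123 were called, 960 by DESeq2 and 20 to 362 with single libraries left out, the highest without mG replicate 2. Of the antioxidant genes 0 were called, 7 by DESeq2 and 0 to 2 with single libraries left out: Gstm2 without mG replicate 1, and Gsta4 and Gsto1 without mG replicate 2. With the replicate block 0 of these genes and 108 of all genes were called (Gstm2 adjusted p = 0.0703), so the block changed no call among them. Some values moved: the log2 fold change with the block was 0.24 for Gpx3 and 1.10 for Sod3, beside 0.65 and 1.44 in the main test. The adjusted p with the block was 0.149 for Gstt1 and 0.304 for Prdx6, beside 0.408 and 0.502. The number with an unadjusted p under 0.05 ran from 9 to 17 over all settings.

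Of 661 fits of the 51 tested genes under 13 alternatives, 613 kept direction and call, 10 passed the threshold where the main test did not, and 38 changed sign, all in 18 genes with sizes up to 0.65 on the log2 scale. Gpx4 was 0.0012 with RLE scaling and 0.00044 with the CPM filter, and Mt2 0.31 with limma-voom and 0.098 with the block. With single libraries left out, log2 fold changes ran from −0.21 to 0.13 for Gpx1, −0.66 to 1.29 for Gpx3, −0.11 to 0.072 for Gpx4, −0.087 to 0.041 for Gpx8, −0.44 to 0.19 for Gstm1, −0.20 to 0.39 for Gsto2, −0.30 to 0.13 for Gstp1, −0.55 to 0.98 for Gstt3, −0.85 to 0.061 for Gstz1, −0.087 to 0.20 for Keap1, −0.25 to 1.2 for Mt1, −1.35 to 1.62 for Mt2, −0.22 to 0.0039 for Nfe2l2, −0.69 to 0.29 for Nqo1, −0.18 to 0.15 for Prdx1, −0.18 to 0.041 for Prdx3, −0.0062 to 0.27 for Sod1 and −0.0036 to 0.26 for Txn2. The cause was not tested. Counting TGAGNNNGC as well, added after seeing the data, moved the genes with antioxidant response letters from 11 to 18. Low counts limit Gsta3, Mgst2 and Mt2.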
